A study of Mus musculus with 12 samples.

Results

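The comparison is between macrophage-enriched cells from mice with intrauterine adhesion (IUA) that were given control mesenchymal stromal cells (MSC) and cells from mice with IUA alone. It sets 6 of the 12 libraries of the study against each other, 3 in each group, with the spread estimated from all 12, and covers 11604 of the 22294 genes in the table, those with at least 1 FPKM (fragments per kilobase, relative to the size of the library) in at least 3 libraries. In every group F4/80-positive cells were taken with magnetic beads from enzyme-digested endometrium, and polyadenylated RNA was sequenced. IUA mice had the adhesion modelled and received no MSC. Control MSC mice had the adhesion modelled and received human umbilical cord MSC without priming, and primed MSC mice received such cells after priming with inflammatory cytokines. Sham mice had a sham operation only. Strain, age, cell dose, route and time of sampling are not given in the sources used here. The word Matrigel stands in the names of the IUA libraries alone, and its effect and the effect of the MSC cannot be told apart here. Nothing states that the libraries of a group came from separate animals, so every p-value reflects only how these libraries varied, which may be technical.

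Intrauterine adhesion is scarring that joins the walls of the uterine cavity after injury to the endometrium. Macrophages enter such wounds, clear debris, release cytokines and proteases, and pass between states that drive inflammation and states that drive repair. MSC are given in such models because they secrete factors and vesicles that act on immune cells, macrophages among them, and the question here is what the macrophage fraction expressed after unprimed cells had been given.

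The 6 libraries held about 17.3 M to 19.96 M fragments (M, mega), read from the whole-fragment steps in the low FPKM values of short genes. At those depths 1 FPKM on a transcript of 2 kilobases stands for 34.5 to 39.9 fragments, and values under 1 FPKM or on shorter transcripts rest on fewer. IUA replicate 3 stood apart: across genes, the correlation of its deviation with the GC content of the transcript was -0.48 (Spearman), against -0.18 to 0.09 in the other 5 libraries. Markers of cells other than macrophages were present in all 6 libraries, uterine epithelial and gland genes above all.

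Control MSC treatment was followed by a change in 99 genes, of which 84 were higher and 15 lower than in IUA (limma, Benjamini-Hochberg adjusted p under 0.05), or 0.853%, 0.724% and 0.129% of the tested genes. The genes that rose encode a dicarboxylate transporter (Slc13a3), a matrix protease (Mmp9), inhibitory receptors (Siglece, Cd72), the F4/80 antigen itself (Adgre1), a small GTPase of blood cells (Rac2) and secreted products of uterine glands (Prss28, Prss29). Those that fell included a subunit of interleukin-23 (Il23a), the activation marker Cd83 and the matrix protein gene Ogn. The genes that rose had a median log2 change of 0.89 and a range from 0.46 to 4.78. The genes that fell had a median of -0.92 and a range from -3.37 to -0.56. Over all tested genes the median was 0.02. All log2 changes are on the log2(FPKM + 1) scale, control MSC minus IUA, with the standard error (SE) of limma, and they understate the change of low genes.

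The 2 groups of libraries did not overlap in any of the 99 genes. This adds no support, here or for a single called gene below, since the same libraries gave the calls. Among all tested genes, called or not, 14.8% lay above IUA without overlap and 7.33% lay below it. At an unadjusted p under 0.05 there were 2182 genes. The count rested on single libraries: without control MSC replicate 2 it was 5 genes, without control MSC replicate 3 it was 6, without IUA replicate 3 it was 35, and without IUA replicate 1 it was 329. It also depended on libraries of the other groups through the shared estimate of the spread: leaving out 1 Sham or primed MSC library gave 46 to 92 genes, and the 6 libraries alone gave 16, of which 12 were among the 99. The transcripts of the genes that rose had a median GC content of 54.5%, those of the genes that fell 50.6%, and those of all tested genes 50.4%. After a correction for GC content 58 genes passed, 41 higher and 17 lower, and 52 of them were among the 99. Median-ratio scaling gave 40 higher and 15 lower, a share of 72.7% higher against 84.8% without it.

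**Figure D1:**
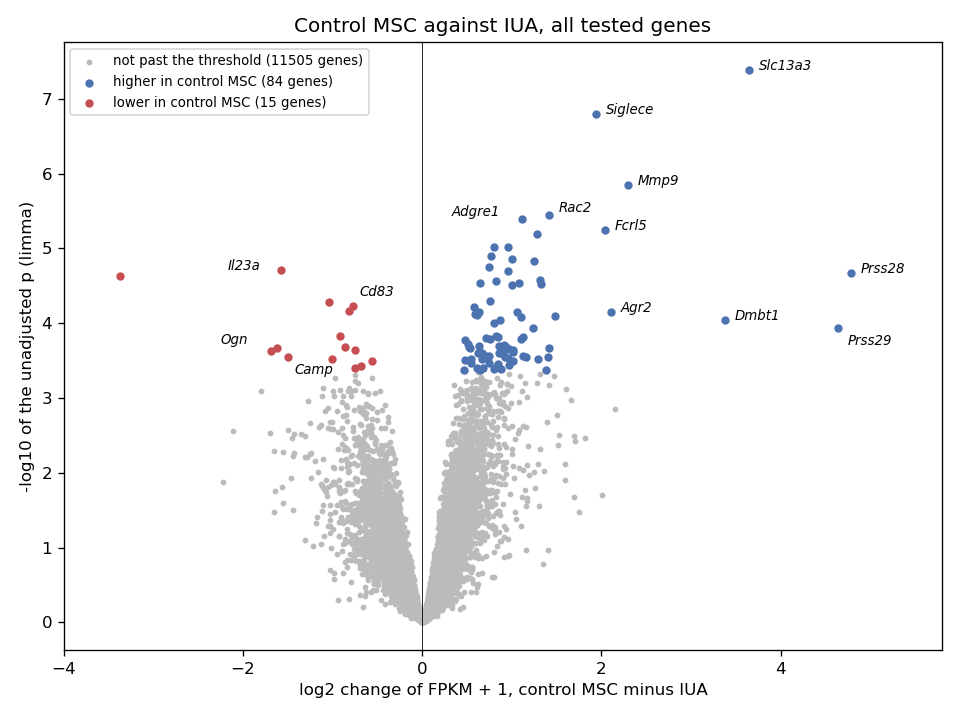
Each point is 1 of 11604 tested genes, with the log2 change of FPKM + 1 (control MSC minus IUA) on the x axis and -log10 of the unadjusted limma p on the y axis; blue points are the 84 genes higher in control MSC and red points the 15 lower. Slc13a3, Siglece and Mmp9 have the smallest p among the genes that rose, and Prss28 and Prss29 the largest changes.

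**Figure D2:**
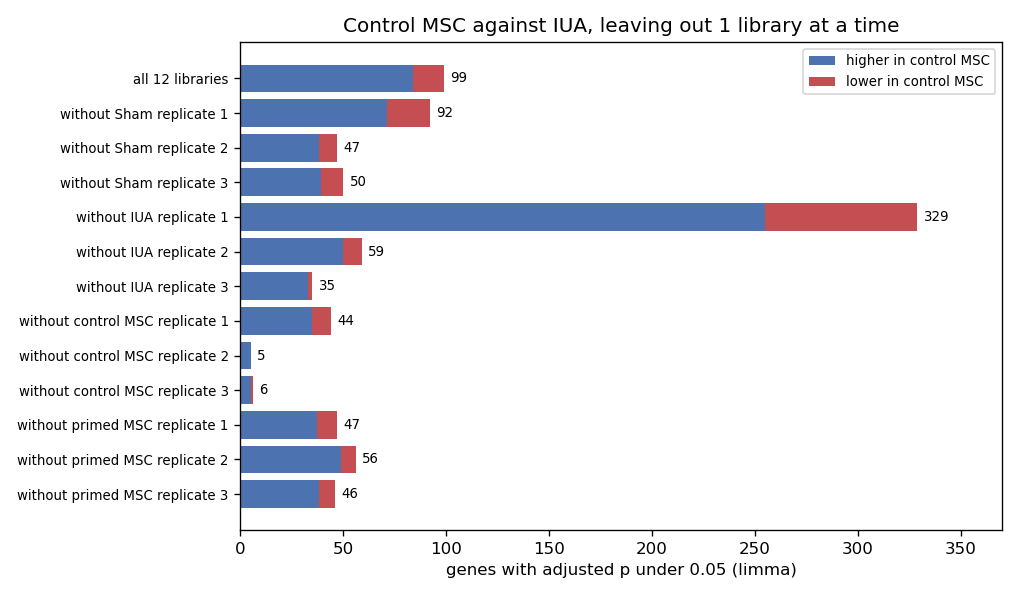
Bars give the number of genes with an adjusted p under 0.05 (limma) with all 12 libraries and after leaving out each library in turn, split into higher (blue) and lower (red) in control MSC. The count was 5 and 6 without control MSC replicate 2 or 3 and 329 without IUA replicate 1.

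The marker by which the cells were sorted was itself higher. Adgre1, which encodes F4/80, an adhesion receptor of mouse macrophages (chromosome 17, 57358691 to 57483527 in GRCm38, as for all positions here), had an FPKM of 476, 401 and 424 in the IUA libraries and 837, 1039 and 944 in the control MSC libraries. Every control MSC library exceeded every IUA library, and the log2 change was 1.11 (SE 0.14, limma adjusted p = 0.00942). Sham libraries held 223 ± 29.0 FPKM (SD, n = 3) and primed MSC libraries 1175 ± 199.8. In bulk RNA, more cells of a type and more RNA of a gene per cell cannot be told apart.

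No other gene of the list that marks macrophages passed. Of 27 macrophage identity genes tested, 1 was higher and none lower, with a median log2 change of 0.21. Without overlap, 12 lay above IUA and 2 below, against 14.8% and 7.33% of all tested genes. All lists here were chosen with earlier results of these data known, so no weight rests on counts over them. Csf1r, the receptor for the growth factor on which macrophages depend, had 202 ± 75.03 FPKM in IUA and 279 ± 13.99 in control MSC (SD, n = 3; log2 change 0.54, SE 0.23, adjusted p = 0.226). Cd68, a lysosomal glycoprotein of macrophages, had 1341 ± 267 and 1143 ± 61.4, a log2 change of -0.21 (SE 0.16, adjusted p = 0.492). Ptprc, which encodes the leukocyte antigen CD45, had 192 ± 28.0 and 178 ± 22.9, a log2 change of -0.11 (SE 0.13, adjusted p = 0.692). The summed FPKM of the 27 genes, which abundant members dominate, was 40910 to 44552 in IUA and 42922 to 47069 in control MSC, ranges that overlap. Their mean log2(FPKM + 1) was 7.80 to 7.99 in IUA and 8.08 to 8.28 in control MSC, ranges that do not.

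Closest to the threshold among the identity genes were the chemokine receptor gene Cx3cr1 (log2 change 0.73, SE 0.17, adjusted p = 0.0592), Sirpa, which encodes a receptor for CD47 (0.65, SE 0.18, adjusted p = 0.0935), and the integrin gene Itgam (0.79, SE 0.22, adjusted p = 0.103). Ctss, a lysosomal protease gene, had a log2 change of -0.35 (SE 0.10, adjusted p = 0.111), Fcgr1 one of 0.48 (SE 0.14, adjusted p = 0.114) and Spi1, which encodes the lineage factor PU.1, one of 0.62 (SE 0.19, adjusted p = 0.127). None of the 6 passed. Of 15 genes of tissue-resident macrophages none passed, and their median was -0.34. The platelet factor gene Pf4 had a log2 change of 0.73 (adjusted p = 0.13) and F13a1, a transglutaminase, one of 0.53 (adjusted p = 0.139), while the haemoglobin scavenger receptor gene Cd163 had one of -0.67 (adjusted p = 0.123) and the ficolin gene Fcna one of -0.66 (adjusted p = 0.191).

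Slc13a3 had the smallest p of all genes. It encodes a sodium-coupled transporter that brings dicarboxylates such as succinate and alpha-ketoglutarate into cells (chromosome 2, 165405028 to 165473230). The IUA libraries had 5.59, 4.62 and 4.41 FPKM and the control MSC libraries 56.3, 101 and 66.0. The lowest control MSC library lay far above the highest IUA library, the ratio of the means was 15.2, and the log2 change was 3.64 (SE 0.30, limma adjusted p = 0.000479). In Sham it held 4.69 ± 2.72 FPKM and in primed MSC 123 ± 32.1 (SD, n = 3).

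Further transporters of small acids rose: Slc16a6, of the monocarboxylate transporter family, and Slc25a10, the dicarboxylate carrier of the mitochondrial inner membrane. Slc16a6 had 22.1, 20.5 and 18.6 FPKM in IUA against 33.3, 51.2 and 48.4 in control MSC (log2 change 1.06, SE 0.18, adjusted p = 0.0265). Slc25a10 had 8.14, 10.6 and 5.37 in IUA against 15.6, 15.9 and 14.7 in control MSC (log2 change 0.90, SE 0.18, adjusted p = 0.0427). Both were higher in every control MSC library than in every IUA library. Each had its lowest IUA value in replicate 3, and neither passed without that library. After GC correction both passed (limma adjusted p = 0.0431 and 0.0357). Of the 10 carboxylate and lactate transporters tested, 3 rose and none fell, and their median log2 change was 0.64. All 10 were above 0, as were 53.4% of all tested genes. Slc13a1, Slc13a2, Slc13a4, Slc13a5 and Slc5a12 were below the level tested. The list was chosen with earlier results of these data known, so no weight rests on these counts. Slc16a3, the lactate exporter of glycolytic cells, had 39.8, 42.3 and 5.32 FPKM in IUA against 66.5, 81.0 and 54.3 in control MSC, and did not pass (log2 change 1.59, SE 0.54, adjusted p = 0.161); the low value is that of IUA replicate 3. Slc5a8, a sodium-coupled monocarboxylate transporter (1.29, SE 0.40, adjusted p = 0.13), and Slc16a1 (0.25, SE 0.11, adjusted p = 0.228) did not pass either, nor did Slc25a1 (0.37, adjusted p = 0.371), Slc25a11 (0.16, adjusted p = 0.483) or Slc16a7 (0.19, adjusted p = 0.528).

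Mmp9, the gelatinase that degrades basement membrane collagen and is stored or secreted by myeloid cells (chromosome 2, 164940780 to 164955850), rose as well. The 3 IUA libraries had 12.3, 11.5 and 6.79 FPKM, and those of control MSC 39.8, 68.3 and 53.2. The groups did not overlap, and the log2 change was 2.29 (SE 0.26, limma adjusted p = 0.00545). It was the only one of 20 metalloproteinases and inhibitors tested that passed, and the median of the list was -0.05. The collagenase gene Mmp8 (log2 change 1.08, adjusted p = 0.135), Mmp14, which encodes a protease anchored in the cell membrane (0.85, adjusted p = 0.224), Adam8 (0.42, adjusted p = 0.249) and Adam17 (0.19, adjusted p = 0.243) had positive values. The stromelysin gene Mmp3 (-1.10, adjusted p = 0.208) and the macrophage elastase gene Mmp12 (-0.83, adjusted p = 0.239) had negative ones.

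**Figure D3:**
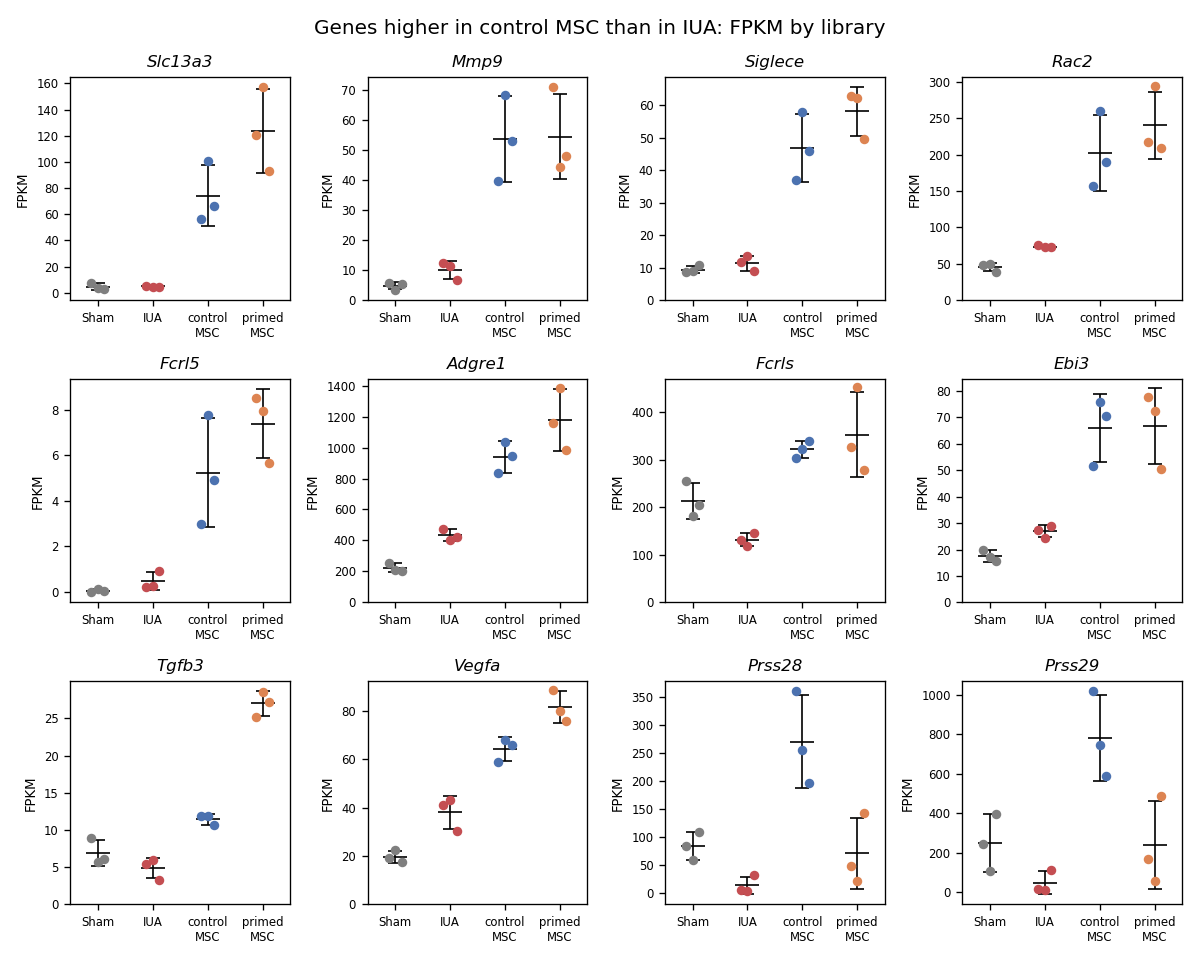
FPKM of 12 genes that rose, by library, in Sham (grey), IUA (red), control MSC (blue) and primed MSC (orange); the horizontal line is the mean and the bars the SD of 3 libraries. In each panel the 3 control MSC libraries lie above the 3 IUA libraries, for Slc13a3 at 56.3 to 101 against 4.41 to 5.59 FPKM.

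Siglece encodes a sialic acid-binding receptor of mouse myeloid cells whose cytoplasmic motifs recruit phosphatases that dampen activation. It is on the minus strand of chromosome 7, from 43651070 to 43660161. The 150 bases before its start, from the RefSeq promoter table for GRCm38.p6, are shown because Siglece is 1 of the 3 genes that passed under every alternative analysis. The window, chr7:43660162-43660311, is read 5′ to 3′ on the minus strand. Capitals mark each GAGGAA or its complement TTCCTC, the core of the PU.1 motif, searched on both strands.
Siglece: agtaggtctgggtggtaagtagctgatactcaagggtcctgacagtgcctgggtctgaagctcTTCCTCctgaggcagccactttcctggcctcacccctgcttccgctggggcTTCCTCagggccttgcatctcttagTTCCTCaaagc
The window holds 3 such matches, beginning 87, 36 and 11 bases before the start. At least 1 match was present in 14.4% of 27025 promoter windows of this length, in 14 of the 72 windows found for the genes that rose and in 0 of the 10 found for the genes that fell. A match of these letters is a description and not a binding site.

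Siglece had 11.9, 13.5 and 8.92 FPKM in IUA against 36.9, 57.7 and 45.8 in control MSC. The control MSC libraries were all above the IUA libraries (log2 change 1.94, SE 0.18, limma adjusted p = 0.000931), while Sham held 9.49 ± 1.12 and primed MSC 58.1 ± 7.52 FPKM (SD, n = 3). Of 21 Siglecs and paired inhibitory receptors tested it alone passed. The list had a median log2 change of 0.33. Without overlap, 7 members lay above IUA and none below, against 14.8% and 7.33% of all tested genes. No weight rests on these counts, as earlier results of these data were known when the list was chosen. Pirb, an inhibitory receptor that binds MHC class I (0.64, SE 0.18, adjusted p = 0.0986), Pilra (0.64, adjusted p = 0.114), Pilrb2 (0.47, adjusted p = 0.177), Cd33 (0.33, adjusted p = 0.205) and Pilrb1 (0.73, adjusted p = 0.216) did not pass.

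Several other genes that rose encode proteins that restrain receptor signalling. They were grouped after their values were seen, so no weight rests on their number. Cd72, an inhibitory receptor best known from B cells, had 120, 111 and 152 FPKM in IUA against 227, 290 and 248.8 in control MSC (log2 change 1.00, SE 0.14, adjusted p = 0.0143). Ptpn6 encodes SHP-1, the phosphatase that such receptors recruit, and had 26.6, 26.3 and 26.1 against 41.4, 65.5 and 51.5 (0.95, SE 0.14, adjusted p = 0.0153). Irak3, a kinase-like protein that blocks signalling from Toll-like receptors, had 25.04, 25.1 and 25.2 against 42.5, 57.1 and 50.4 (0.95, SE 0.13, adjusted p = 0.0124). The IUA libraries lay within 1 FPKM of each other for Ptpn6 and Irak3, and the control MSC libraries were spread more widely but all above them. Inpp5d, the inositol phosphatase SHIP-1, was the closest to the threshold (0.81, SE 0.17, adjusted p = 0.0498).

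Among Fc receptors and Fc receptor-like genes, 2 of 12 tested rose and none fell, with a median log2 change of 0.19. Fcrls, an Fc receptor-like gene expressed by macrophages and microglia, had 132, 118 and 146 FPKM in IUA against 304, 322 and 339 in control MSC (log2 change 1.29, SE 0.17, limma adjusted p = 0.0106). Fcrl5, an Fc receptor-like gene known from B cells, had 0.21, 0.28 and 0.92 in IUA against 2.99, 7.75 and 4.93 in control MSC (2.04, SE 0.27, adjusted p = 0.0106). Both sets of control MSC libraries were above IUA without overlap, Fcrl5 from values under 1 FPKM. B cell and plasma cell genes, summed over 14 genes, were at 408 to 683 FPKM in IUA and 487 to 595 in control MSC, and of the 10 tested none passed. Fcer1g, the signalling chain of activating Fc receptors, had a log2 change of 0.47 (SE 0.16, adjusted p = 0.158), Fcgr4 one of 0.44 (adjusted p = 0.208), Fcgr3 one of -0.23 (adjusted p = 0.346), Fcgr2b one of -0.17 (adjusted p = 0.455) and Fcer1a one of -0.52 (adjusted p = 0.22).

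C-type lectin receptors, which bind glycans on microbes and dying cells, were split. Of 16 tested, 2 rose and none fell, and the median was -0.10. Clec4a2, an inhibitory lectin of myeloid cells, had 72.9, 61.3 and 97.9 FPKM in IUA against 116, 148 and 149 in control MSC (log2 change 0.84, SE 0.17, adjusted p = 0.0467). Its neighbour Clec4a1 had 116, 117 and 139 against 182, 245 and 228 (0.81, SE 0.14, adjusted p = 0.03). Clec4a1 and Clec4a2 are related copies on chromosome 6, and reads shared between them could be split by the counting. The dectin gene Clec7a (-0.35, SE 0.11, adjusted p = 0.128), the galactose-type lectin gene Clec10a (-0.49, adjusted p = 0.199), Mgl2 (-0.79, adjusted p = 0.233) and Cd209a (-0.80, adjusted p = 0.22) had negative values, and Clec4a3 (0.43, adjusted p = 0.183) and Clec12a (0.31, adjusted p = 0.331) positive ones. None of these passed. Slamf9, a SLAM-family receptor of myeloid cells, rose from 19.2, 16.6 and 25.8 to 41.3, 65.6 and 50.7 FPKM (log2 change 1.31, SE 0.20, adjusted p = 0.0156). Sirpb1a, from a family of near-identical receptors and therefore uncertain, went from 15.5, 9.33 and 16.8 to 22.7, 43.6 and 41.1 (1.29, SE 0.26, adjusted p = 0.0427).

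Toll-like and formyl peptide receptors, which sense microbial products, had no member past the threshold among 17 tested, with a median of 0.28. Fpr1, the high-affinity formyl peptide receptor, came closest, with 54.1, 69.2 and 51.8 FPKM in IUA against 106, 223 and 122 in control MSC (log2 change 1.28, SE 0.28, adjusted p = 0.0583). Tlr4, the receptor for lipopolysaccharide, had a log2 change of 0.40 (SE 0.11, adjusted p = 0.1), Tlr1 one of 0.40 (adjusted p = 0.163), Tlr9 one of 0.58 (adjusted p = 0.157), Ticam1 one of 0.52 (adjusted p = 0.17) and Fpr2 one of 0.92 (adjusted p = 0.167).

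Genes of the actin cytoskeleton, integrins and small GTPase signalling were also among those that rose, again grouped after their values were seen. Rac2, a small GTPase of blood cells that drives migration and the oxidative burst (chromosome 15, 78559167 to 78572783), had 75.4, 72.7 and 73.1 FPKM in IUA against 157, 260 and 189 in control MSC. The IUA libraries were within a few FPKM of each other and the control MSC libraries all above them (log2 change 1.41, SE 0.18, limma adjusted p = 0.00942). Itgal, the alpha chain of the integrin LFA-1, had 6.74, 5.76 and 3.51 against 11.9, 17.9 and 14.1 (1.32, SE 0.20, adjusted p = 0.0156). Coro1a, which binds actin filaments in leukocytes, had 42.8, 43.1 and 28.2 against 74.1, 106 and 91.6 (1.24, SE 0.22, adjusted p = 0.034). The 9 others, among them its relative Coro1b, the actin-severing protein gene Cfl1, the talin gene Tln1, which links integrins to actin, and the Rac exchange factor gene Prex1, lay between 0.48 and 1.01 with adjusted p from 0.0124 to 0.0497. The transcripts of these 12 genes had GC contents from 52.4% to 59.3%, above the median of all tested genes. After GC correction Rac2 (log2 change 1.23, adjusted p = 0.0291) and Itgal (1.24, adjusted p = 0.0291) still passed. Coro1a (1.05, adjusted p = 0.0518), Coro1b (0.47, adjusted p = 0.0749), Cfl1 (0.42, adjusted p = 0.0919) and Tln1 (0.76, adjusted p = 0.0553) did not.

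In the interleukin-12 family 2 subunits moved in opposite directions. The family consists of cytokines built from pairs of subunits: Il23a with Il12b makes interleukin-23, which sustains inflammation by T cells, and Ebi3 pairs with Il27 or Il12a in cytokines known for restraining it. Il23a (chromosome 10, 128296139 to 128298752) had 9.80, 13.8 and 10.8 FPKM in IUA against 2.37, 3.83 and 3.36 in control MSC. The highest control MSC library was below the lowest IUA library (log2 change -1.57, SE 0.23, limma adjusted p = 0.0153). Sham was lower still at 0.867 ± 0.586 FPKM (SD, n = 3), and control MSC remained above it (log2 change 1.19 against Sham, SE 0.23, adjusted p = 0.0011).

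Ebi3 (chromosome 17, 55952640 to 55957022) had 27.5, 24.4 and 29.0 FPKM in IUA against 51.5, 75.8 and 70.6 in control MSC, with no overlap (log2 change 1.24, SE 0.18, adjusted p = 0.0143). After GC correction its log2 change was 1.07 (adjusted p = 0.0548), while that of Il23a was -1.59 (adjusted p = 0.0291). Il12b, the shared subunit of interleukin-12 and interleukin-23, had 13.3, 6.62 and 5.77 in IUA against 3.58, 2.34 and 3.63 in control MSC and did not pass (-1.13, SE 0.29, adjusted p = 0.0849). Neither did Il12a (0.60, SE 0.29, adjusted p = 0.299), Il27 (-0.21, adjusted p = 0.758) or the receptor genes Il12rb2 (-0.70, adjusted p = 0.179), Il6st (-0.11, adjusted p = 0.805) and Il27ra (-0.03, adjusted p = 0.965). Over the 8 members tested, 1 rose, 1 fell and the median was -0.16.

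Il23a was also the only one of 20 pro-inflammatory activation genes to pass, and the list median was -0.07. Il1a, the alarm cytokine interleukin-1 alpha, had 633, 737 and 481 FPKM in IUA against 257, 448 and 311 in control MSC (log2 change -0.88, SE 0.20, adjusted p = 0.0589). The costimulatory receptor gene Cd40 had -0.71 (SE 0.20, adjusted p = 0.101), the chemokine gene Cxcl9 -0.61 (adjusted p = 0.142) and the transcription factor gene Irf5 0.62 (SE 0.18, adjusted p = 0.117). Il1a, Cd40 and Cxcl9 lay below IUA without overlap and Irf5 above it, but none passed.

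Cd83, a surface marker of activated antigen-presenting cells (chromosome 13, 43784775 to 43803132), fell. It had 1297, 1256 and 1532 FPKM in IUA against 672, 836 and 881 in control MSC, every control MSC library below every IUA library (log2 change -0.78, SE 0.13, limma adjusted p = 0.0258). The Sham level was 697 ± 86.3 FPKM (SD, n = 3), and control MSC against Sham gave 0.19 (SE 0.13, adjusted p = 0.229).

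MHC class II genes, which present peptides to helper T cells, had no member past the threshold among 9 tested. All 9 had negative log2 changes, the median was -0.47, and 6 lay below IUA without overlap, against 7.33% of all tested genes. No weight rests on these counts, since the list was chosen with earlier results of these data known. H2-DMb1, which loads peptides, had 254, 228 and 226 FPKM in IUA against 148, 147 and 185 in control MSC (log2 change -0.57, SE 0.12, adjusted p = 0.0567). The most abundant member, Cd74, the invariant chain, had 15595, 11977 and 13793 against 8832, 9298 and 11963 (-0.46, SE 0.16, adjusted p = 0.152). H2-Ab1 (-0.59, SE 0.17, adjusted p = 0.114), H2-DMa (-0.43, adjusted p = 0.118), H2-Aa (-0.47, adjusted p = 0.143) and H2-Oa (-0.66, adjusted p = 0.162) were similar in size. Summed dendritic cell genes, which such a list could share, were at 66.0 to 98.3 FPKM in IUA and 41.0 to 62.4 in control MSC, and their part in these values was not tested.

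Interferon-gamma-induced genes gave the same kind of picture, with 0 of 20 past the threshold and a median of -0.44. Without overlap, 10 lay below IUA and none above, against 7.33% and 14.8% of all tested genes. This list too was chosen with earlier results known, and no weight rests on its counts. The GTPase gene Iigp1, which acts against parasites within cells, had 55.3, 58.6 and 59.1 FPKM in IUA against 30.1, 24.4 and 24.1 in control MSC (log2 change -1.12, SE 0.26, adjusted p = 0.0589). Tgtp2 (-1.02, SE 0.27, adjusted p = 0.0871) and Tgtp1 (-1.12, SE 0.39, adjusted p = 0.168), near-identical copies and so uncertain, and the guanylate-binding protein genes Gbp3 (-0.66, SE 0.19, adjusted p = 0.102) and Gbp6 (-0.87, SE 0.32, adjusted p = 0.178) did not pass. Ifi203, of another family of interferon-induced genes, fell from 29.9, 25.2 and 29.0 to 17.8, 15.6 and 17.6 FPKM (-0.69, SE 0.14, limma adjusted p = 0.0477). It passed in 6 of 26 alternative analyses, and not after GC correction (-0.57, limma adjusted p = 0.0928). Of 21 type I interferon-stimulated genes tested none passed. Their median was -0.03, with 10 above 0, and without overlap 0 lay above IUA and 2 below.

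Genes of alternative activation, the state linked to repair, had no member past the threshold among 19 tested, with a median of -0.23. Il4ra, the receptor chain for interleukin-4, had a log2 change of 1.00 (SE 0.29, adjusted p = 0.113), and the transglutaminase gene Tgm2 one of 0.81 (SE 0.27, adjusted p = 0.154). The eotaxin gene Ccl24 had 63.0, 124 and 51.2 FPKM in IUA against 40.9, 40.9 and 27.0 in control MSC (-1.03, SE 0.41, adjusted p = 0.21).

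**Figure D4:**
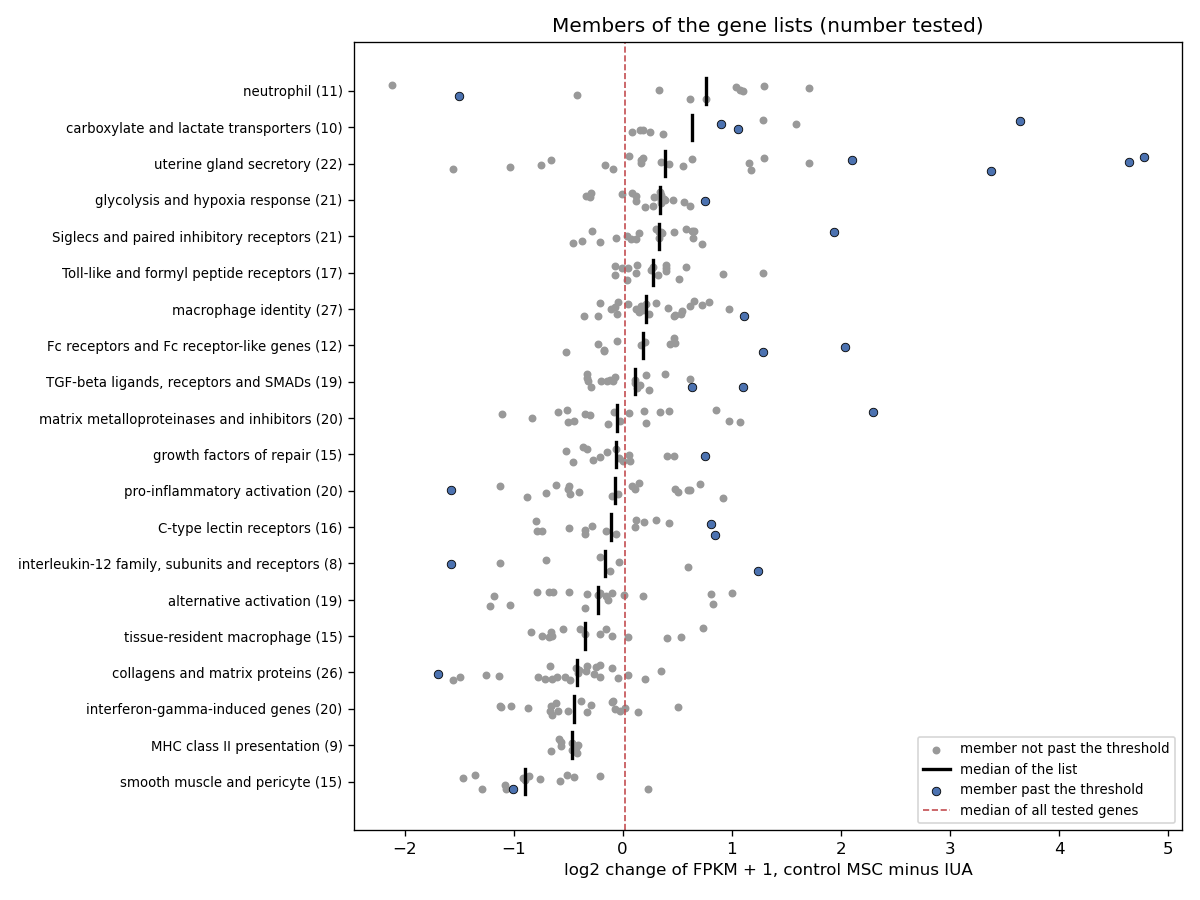
Log2 change (control MSC minus IUA) of each tested member of 20 gene lists, with the number tested in brackets; blue points passed the threshold, black bars are list medians and the dashed line is the median of all tested genes, 0.02. List medians run from -0.90 for smooth muscle and pericyte genes to 0.76 for neutrophil genes.

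Among ligands and regulators of repair, Tgfb3, Thbs1 and Vegfa rose, but none of these passed without IUA replicate 3. Tgfb3, a ligand of the TGF-beta family that is known from wound healing (chromosome 12, 86056745 to 86079041), had 5.48, 5.91 and 3.31 FPKM in IUA against 11.8, 11.9 and 10.6 in control MSC, with no overlap (log2 change 1.10, SE 0.19, limma adjusted p = 0.0271). Primed MSC libraries reached 27.0 ± 1.72 FPKM (SD, n = 3), and the log2 change of primed against control MSC was 1.17 (SE 0.19, adjusted p = 0.05, just under the threshold). Thbs1, thrombospondin, which can activate latent TGF-beta, had 813, 800 and 648 in IUA against 1047, 1270 and 1187 in control MSC (0.63, SE 0.12, adjusted p = 0.042). After GC correction Tgfb3 still passed (1.03, limma adjusted p = 0.0306) and Thbs1 did not (0.61, adjusted p = 0.0776).

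Of 19 TGF-beta ligands, receptors and SMADs tested, 2 rose and none fell, with a median of 0.11. Tgfb1 was low and did not pass (0.61, SE 0.24, adjusted p = 0.2), nor did Tgfb2 (-0.32, adjusted p = 0.424), the signal transducer gene Smad3 (0.38, adjusted p = 0.152), the inhibitors Skil (-0.33, adjusted p = 0.155) and Smad7 (0.24, adjusted p = 0.455), or Ltbp3 (-0.32, adjusted p = 0.363).

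Vegfa, the main growth factor of blood vessels, had 40.9, 43.1 and 30.2 FPKM in IUA against 58.7, 68.0 and 66.0 in control MSC (log2 change 0.75, SE 0.14, limma adjusted p = 0.0403). After GC correction Vegfa did not pass (0.65, limma adjusted p = 0.0548). It was the only one of 15 growth factors of repair to pass, with a list median of -0.06. Grn (0.41, adjusted p = 0.145) and Osm (0.47, adjusted p = 0.177) had positive values and Igf1 (-0.52, adjusted p = 0.178), Hbegf (-0.36, adjusted p = 0.342), Vegfc (-0.45, adjusted p = 0.399) and Ereg (-0.32, adjusted p = 0.412) negative ones.

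Vegfa is also a target of the hypoxia response, and of 21 glycolysis and hypoxia genes it alone passed, with a median of 0.34. Hif1a, the oxygen-regulated transcription factor subunit, had 132, 129 and 115 FPKM in IUA against 153, 178 and 159 in control MSC and did not pass (0.38, SE 0.10, adjusted p = 0.0773). Its partner Arnt (0.52, SE 0.10, adjusted p = 0.042) and the oxygen sensor Egln2, a prolyl hydroxylase (1.08, SE 0.17, adjusted p = 0.0156), both outside the list and picked out after their values were seen, rose. The glycolytic genes Pgam1 (0.35, adjusted p = 0.136), Pkm (0.56, adjusted p = 0.167) and Gapdh (0.35, adjusted p = 0.246), the glucose transporter gene Slc2a1 (0.34, adjusted p = 0.247) and Egln3 (0.62, adjusted p = 0.167) did not pass.

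The largest rises were in genes that are not known as macrophage genes. Prss28 and Prss29 encode serine proteases secreted by uterine glands around implantation, and lie 6.778 kilobases apart on the plus strand of chromosome 17, Prss28 from 25308646 to 25311876 and Prss29 from 25318654 to 25322684. Their sequences before the start, from the same RefSeq table, are shown because these neighbours moved together and resemble each other. The windows are chr17:25308496-25308645 and chr17:25318504-25318653, and capitals mark TATAAA, and GAGGAA or TTCCTC, searched on both strands with no overlap between the motifs.
Prss28: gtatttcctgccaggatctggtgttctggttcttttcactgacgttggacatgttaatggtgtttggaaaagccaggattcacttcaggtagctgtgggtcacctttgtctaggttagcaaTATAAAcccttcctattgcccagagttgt
Prss29: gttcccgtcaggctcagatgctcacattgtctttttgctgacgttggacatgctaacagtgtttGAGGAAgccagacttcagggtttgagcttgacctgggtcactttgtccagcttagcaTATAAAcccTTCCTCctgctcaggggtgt
Both have TATAAA beginning 29 bases before the start, and 113 of 156 aligned positions (72.4%) are identical. TATAAA was present in 8.08% of the 27025 windows, in 4 of 72 for the genes that rose and in 2 of 10 for those that fell.

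Prss28 had 5.08, 3.39 and 31.6 FPKM in IUA against 360, 255 and 196 in control MSC (log2 change 4.78, SE 0.71, limma adjusted p = 0.0155). Prss29 had 16.1, 13.5 and 116 in IUA against 1018, 745 and 588 in control MSC (4.64, SE 0.83, adjusted p = 0.034). IUA replicate 3 was the highest IUA library for both and still lay below every control MSC library. Against Sham, at 83.8 ± 24.9 and 249.97 ± 146 FPKM (SD, n = 3), the log2 changes of control MSC were 1.68 (SE 0.71, adjusted p = 0.0624) and 1.80 (SE 0.83, adjusted p = 0.0815).

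Also from glands, Dmbt1, a mucosal scavenger protein, had 2.17, 1.73 and 1.55 FPKM in IUA against 46.4, 21.9 and 21.8 in control MSC (log2 change 3.38, SE 0.59, adjusted p = 0.0287). Agr2, an enzyme that folds mucins, had 5.36, 6.59 and 8.52 against 35.6, 31.8 and 29.3 (2.10, SE 0.36, adjusted p = 0.0265). Neither overlapped between the groups. Of 22 gland secretory genes tested, 4 rose, none fell, and the median was 0.39. Without overlap, 9 lay above IUA and none below, against 14.8% and 7.33% of all tested genes. The list was chosen with earlier results of these data known, so no weight rests on these counts or on sums over the list. Lcn2 (1.70, SE 0.48, adjusted p = 0.102), Ltf (1.30, SE 0.52, adjusted p = 0.21), Pigr (1.17, adjusted p = 0.202) and Muc4 (0.64, adjusted p = 0.317) did not pass, and Cxcl15 (-1.56, SE 0.61, adjusted p = 0.205) and Calb1 (-1.03, adjusted p = 0.296) had negative values.

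Summed over the list of gland genes, IUA libraries held 1358, 1843 and 1550 FPKM and control MSC libraries 4217, 3170 and 2701. General epithelial genes summed to 1651, 5484 and 3674 in IUA against 4017, 1595 and 1719 in control MSC, values that overlap. None of 18 passed, and the median was -0.36. With the mean of the epithelial genes in the model, 168 genes passed, 98 of them among the 99. That mean, as log2(FPKM + 1), was 4.06 to 5.05 in IUA and 3.97 to 4.98 in control MSC, which overlap. The mean of the gland genes, 3.54 to 3.88 against 4.15 to 5.02, did not overlap. The epithelial mean therefore cannot adjust for gland transcripts. The cells were selected for F4/80, and whether the gland transcripts came from gland cells carried through the sort was not tested.

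Neutrophil genes overlap with this group, since Ltf and Lcn2 belong to both lists. Of 11 tested, none rose and 1 fell, and the median was 0.76. The one that fell was Camp, the cathelicidin of neutrophil granules, from 5.39, 2.23 and 2.37 to 0.30, 0.39 and 0.69 FPKM (log2 change -1.50, SE 0.30, limma adjusted p = 0.0427). Ngp, another granule gene, had 16.1, 5.61 and 10.1 against 1.43, 0.53 and 3.15 and did not pass (-2.12, SE 0.56, adjusted p = 0.0908). The colony-stimulating factor receptor gene Csf3r (0.76, SE 0.26, adjusted p = 0.161) and Il1f9 (1.04, adjusted p = 0.226) had positive values. Ly6g, Elane and Mpo were below the level tested. Without Ltf and Lcn2 the sign of the remaining members was mixed.

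Smooth muscle and pericyte genes had the lowest median of the lists described, -0.90. Of 15 tested, 1 fell, none rose, and 11 lay below IUA without overlap, against 7.33% of all tested genes. As the list was chosen with earlier results of these data known, no weight rests on these counts. Cald1, caldesmon, which regulates actin and myosin in smooth muscle (chromosome 6, 34598500 to 34775473), had 36.9, 40.3 and 43.3 FPKM in IUA against 26.7, 20.02 and 13.7 in control MSC (log2 change -1.01, SE 0.20, limma adjusted p = 0.0427). Mylk (-1.35, SE 0.37, adjusted p = 0.0935), Synpo2 (-0.90, adjusted p = 0.105), Cnn1 (-1.29, adjusted p = 0.121), Actg2 (-1.46, adjusted p = 0.155), Myh11 (-1.08, adjusted p = 0.18) and Tagln (-1.07, adjusted p = 0.19), all contractile genes, did not pass. The list summed to 542 to 696 FPKM in IUA and 238 to 437 in control MSC.

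Ogn, osteoglycin, a small leucine-rich proteoglycan of connective tissue (chromosome 13, 49608046 to 49624501), fell from 19.9, 7.91 and 13.3 to 4.14, 3.23 and 2.65 FPKM, without overlap (log2 change -1.69, SE 0.33, limma adjusted p = 0.0422). It was the only one of 26 collagens and matrix proteins to pass, with a list median of -0.42. Its relatives Dcn (-1.49, SE 0.40, adjusted p = 0.0899) and Lum (-1.56, SE 0.46, adjusted p = 0.116), and Efemp1 (-1.25, adjusted p = 0.119), Fmod (-0.65, adjusted p = 0.133), Postn (-1.14, adjusted p = 0.167) and Bgn (-0.60, adjusted p = 0.303), did not. Stromal cell genes summed to 1141, 456 and 534 FPKM in IUA against 374, 340 and 452 in control MSC, with IUA replicate 1 the highest by far. The part of smooth muscle and stromal cells in these values was not tested.

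**Figure D5:**
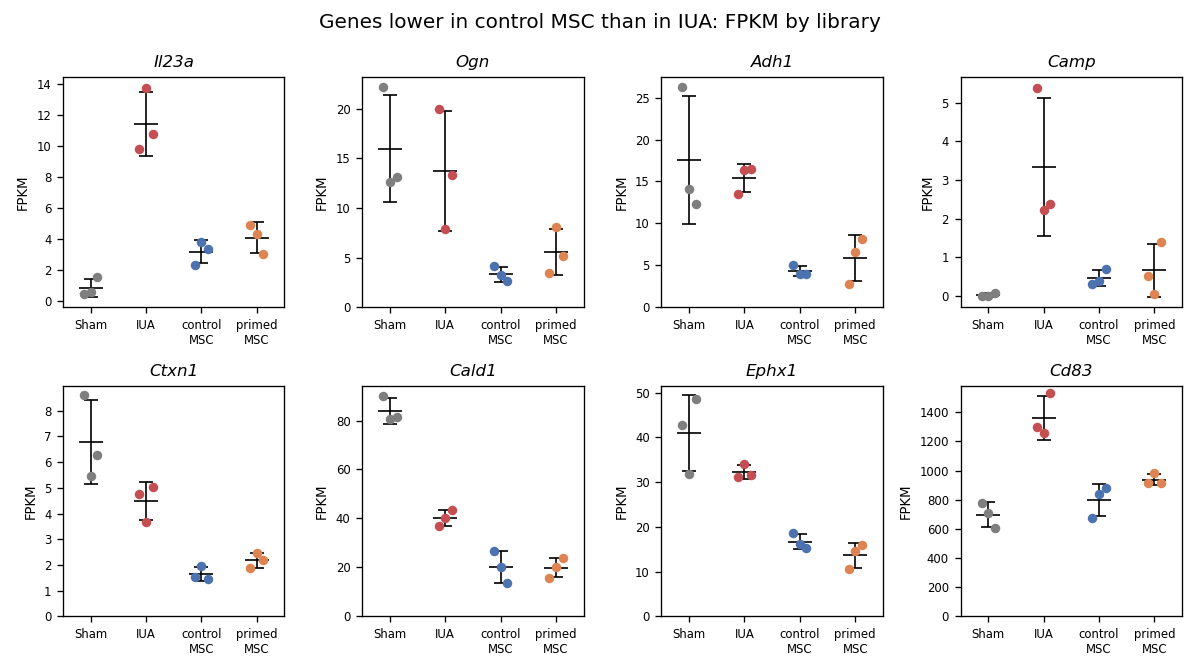
FPKM of 8 genes that fell, by library, in Sham (grey), IUA (red), control MSC (blue) and primed MSC (orange); the horizontal line is the mean and the bars the SD of 3 libraries. In each panel the control MSC libraries lie below the IUA libraries, for Il23a at 2.37 to 3.83 against 9.80 to 13.8 FPKM.

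Of the other genes that fell, Adh1, an alcohol dehydrogenase that also oxidises retinol, had 13.6, 16.4 and 16.4 FPKM in IUA against 5.07, 3.96 and 4.03 in control MSC (log2 change -1.62, SE 0.31, adjusted p = 0.042). Ephx1, a microsomal epoxide hydrolase, had 31.1, 34.1 and 31.6 against 18.5, 16.1 and 15.3 (-0.92, SE 0.17, adjusted p = 0.0403). Mgst1, a microsomal glutathione transferase, had 206, 262 and 254 against 165, 150 and 172 (-0.56, SE 0.11, adjusted p = 0.0442). None of the control MSC libraries of these 3 genes reached an IUA library. Of 19 NRF2 antioxidant genes tested Ephx1 alone passed, 13 had a log2 change above 0 and the median was 0.16. Of 17 retinoid and aldehyde genes tested Adh1 alone passed, with a median of -0.06. Gem, a GTPase that inhibits calcium channels, had 49.6, 49.9 and 48.8 against 28.6, 30.2 and 24.1 (-0.82, SE 0.14, adjusted p = 0.0265). Rnd3, an atypical small GTPase that opposes contraction (-0.75, SE 0.15, adjusted p = 0.0422), Gadd45g, a stress-induced growth regulator (-0.75, SE 0.15, adjusted p = 0.0492), and Ctxn1 (-1.04, SE 0.17, adjusted p = 0.0241) also fell.

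The remaining genes named for the size of their rise were of mixed roles. Xylt2, the xylosyltransferase that starts glycosaminoglycan chains, had 3.48, 3.08 and 0.94 FPKM in IUA against 8.55, 9.18 and 6.91 in control MSC (log2 change 1.48, SE 0.25, limma adjusted p = 0.0271). Sphk2, a kinase that makes sphingosine 1-phosphate, had 3.67, 3.02 and 0.75 against 7.56, 8.86 and 5.86 (1.38, SE 0.29, adjusted p = 0.0498). In both, the lowest value was that of IUA replicate 3. Tsc22d4 had 5.89, 12.7 and 5.49 against 18.2, 20.7 and 15.4 (1.16, SE 0.23, adjusted p = 0.0427). Pinlyp, named for inhibiting phospholipase A2, had 1.99, 1.46 and 0.76 against 5.96, 4.00 and 6.10 (1.42, SE 0.27, adjusted p = 0.042). Cstdc4, in a family of closely related cystatin genes and therefore uncertain, was listed at 0.81, 0.12 and 0 against 1.91, 1.80 and 3.64 (1.41, SE 0.28, adjusted p = 0.0427).

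The genes that rose stood at different places relative to Sham, a comparison that shares the control MSC libraries and in which 56.8% of tested genes passed; IUA against Sham passed in 56.2%. Slc13a3 and Siglece had close to Sham levels in IUA (log2 change of IUA against Sham 0.14, SE 0.30, adjusted p = 0.706, and 0.24, SE 0.18, adjusted p = 0.285). Against Sham, control MSC gave 3.78 for Slc13a3 (SE 0.30, adjusted p = 4.33e-06) and 2.17 for Siglece (SE 0.18, adjusted p = 5.53e-06). Adgre1, Cd72 and Thbs1 were above Sham in IUA already, by 0.96, 1.20 and 1.62, and by 2.07, 2.20 and 2.25 in control MSC, with adjusted p of 0.00026 or less in all 6 values. Fcrls, Agr2 and Prss28 were below Sham in IUA, by -0.68, -1.63 and -3.11 (adjusted p = 0.00517, 0.0024 and 0.00319). In control MSC, Fcrls was above Sham (0.61, SE 0.17, adjusted p = 0.00933) and Agr2 did not differ past the threshold (0.47, SE 0.36, adjusted p = 0.273).

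Primed MSC against control MSC passed in 13 genes, 0.112% of those tested, and primed MSC against IUA in 19.1%; these share libraries with the comparison described. Most named genes had no difference past the threshold between the 2 kinds of cells. For Slc13a3 the log2 change of primed against control MSC was 0.74 (SE 0.30, adjusted p = 0.341), for Siglece 0.32 (SE 0.18, adjusted p = 0.491), for Mmp9 0.03 (SE 0.26, adjusted p = 0.979), for Adgre1 0.31 (SE 0.14, adjusted p = 0.38) and for Il23a 0.28 (SE 0.23, adjusted p = 0.654). Prss28 (-2.28, SE 0.71, adjusted p = 0.237) and Prss29 (-2.17, SE 0.83, adjusted p = 0.311) had large negative values with wide errors, and in primed MSC they held 70.7 ± 63.2 and 238 ± 222 FPKM (SD, n = 3). Pinlyp was the exception besides Tgfb3, at 0.503 ± 0.613 FPKM in primed MSC against 5.35 ± 1.17 in control MSC (-2.13, SE 0.27, limma adjusted p = 0.0281).

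Named genes differed in how far they depended on the analysis. Mmp9, Siglece and Slc13a3 passed in all 26 alternative analyses, Rac2 in 25, Fcrl5 in 24, and Adgre1, Cd72, Fcrls, Il23a and Slamf9 in 23. Ebi3, Itgal, Prss28, Ptpn6 and Irak3 passed in 22. Further down were Agr2, Prss29, Slc16a6 and Tgfb3 with 19, and Dmbt1 and Cd83 with 18. Vegfa passed in 14, Ogn and Slc25a10 in 13, and Cald1 and Thbs1 in 11. Lower still were Mgst1 and Tln1 with 10, and Arnt, Clec4a2, Sirpb1a, Gadd45g and Prex1 with 9. Tsc22d4 passed in 8, Ifi203 and Sphk2 in 6 and Inpp5d in 5. Of the 25 analyses in which they were tested, Pinlyp passed in 8 and Camp and Cstdc4 in 7. The highest adjusted p of the 3 that always passed was 0.0353 for Mmp9, 0.0229 for Siglece and 0.00748 for Slc13a3. Ogn, Arnt, Mgst1, Inpp5d, Rnd3, Sphk2, Sirpb1a, Tsc22d4, Prex1 and Cstdc4 did not pass after GC correction (limma adjusted p 0.0511 to 0.0741).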

How the data were processed

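RNA sequencing of F4/80-positive endometrial cells gave 12 libraries in 4 groups of 3. The authors deposited 1 table of FPKM per gene and library; per the submitters' processing notes, fastp, HISAT2, StringTie, RSEM and DESeq2 were used with build mm10, without versions and without saying which step used which. Depths were read from whole-fragment steps in the FPKM of short genes with 1 transcript (72.0% to 85.2% of values within 0.1 of a whole number). Steps were not recovered for all genes, so no count test was run.

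The test was that of limma 3.58.1, run in R 4.3.3 on log2(FPKM + 1), with 1 mean per group over all 12 libraries and a variance trend. Tests were two-sided, with Benjamini-Hochberg adjustment over 11604 genes, and "rose" and "fell" mean an adjusted p under 0.05. The script was tested on simulated data. Positions are from GENCODE vM21 and promoters from RefSeq, both GRCm38; promoter windows are 150 bases. The correlation of deviations was -0.27, -0.06 and 0.08 for same-numbered IUA and control MSC libraries, and -0.24 to 0.27 for differently numbered ones. With 3 libraries per group these values cannot tell whether the replicate numbers pair the libraries.

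The members and lists were chosen with earlier results of these data known. Named genes are up to 20 per direction by log2 change among called genes without overlap and with a gene name, every called member and up to 6 others by smallest p of each list described, and Adgre1, Csf1r, Cd68 and Ptprc; further genes were chosen after their values were seen, among them Cd72, Ptpn6, Irak3, Inpp5d, Coro1b, Cfl1, Tln1, Prex1, Arnt and Egln2. Of the genes the rule gives, 1 is not reported here. Alternatives covered pseudocounts, filters, scaling, model, GC content and leaving out libraries.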

Additional observations from a re-analysis of the deposited data

How the results depend on the processing

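Against 99 genes (84 higher, 15 lower), counts differed by over 1.5 times, overall or in 1 direction, as follows. No filter gave 29 (26 and 3), median-ratio scaling 55 (40 and 15), the 6 libraries alone 16 (12 and 4), array weights 82 (73 and 9), GC correction 58 (41 and 17), the epithelial covariate 168 (122 and 46), an adjusted p under 0.1 412 (304 and 108), and a log2 change of at least 1 39 (32 and 7). The replicate block gave 43 (40 and 3), of which 39 were among the 99. Whether the replicate numbers pair the libraries is not known. Leaving out 1 library in turn gave 5 to 329 genes, 5 to 255 higher and 0 to 74 lower; an arm of 2 libraries shared the spread of all groups. Without control MSC replicate 2, 0 genes were lower by limma, with 1363 genes at an unadjusted p under 0.05. GC correction with IUA replicate 3 left out, chosen after seeing the data, gave 9 genes (9 higher and 0 lower). Pseudocounts of 0.1 and 0.5, a filter at FPKM 5, TPM, quantile scaling and robust variances gave 84 to 117. Changes of sign occurred in 3 named genes, none past the threshold: Il27ra (0.07, 0.14, 0.01 and 0.10 without IUA replicate 1 or 2 or control MSC replicate 1 or 3; range over libraries left out -0.30 to 0.14), Il6st (0.01 and 0.0472 without IUA replicate 1 or 2; range -0.41 to 0.0472) and Ptprc (0.00230 without IUA replicate 3 and 0.000239 without control MSC replicate 1, range -0.20 to 0.00230; 0.0403 with GC correction and IUA replicate 3 left out). The cause of these differences was not tested. Depth limits values under 1 FPKM and short transcripts most, since these rest on the fewest fragments.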

Other observations

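Several further gene groups had no member past the threshold, except 1 in the last group. Their values are given as a description beside the median of 0.02 over all tested genes. These lists were chosen with earlier results of the data known, so no weight rests on their counts. Of all tested genes, 14.8% lay above IUA without overlap and 7.33% below. Of 19 cell cycle genes tested, 8 lay above IUA without overlap and none below, with a median log2 change of 0.39; the replication helicase gene Mcm3 had 0.61 (SE 0.18, limma adjusted p = 0.114). Of 16 iron and haem genes 8 lay above and 1 below, with a median of 0.36, and the phagosomal metal transporter gene Slc11a1 had 0.60 (SE 0.16, adjusted p = 0.0849). CC chemokines and their receptors had a median of -0.44 over 18 tested genes, with 4 below IUA and none above. Among 19 NF-kB genes the kinase gene Ikbke had 1.09 (SE 0.23, adjusted p = 0.0562), and among 23 lysosomal genes the sialidase gene Neu1 had 0.60 (SE 0.13, adjusted p = 0.0583). Of 22 genes of glycan synthesis 1, Xylt2, rose, and the median was 0.21.

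The largest fall was in Gm21541 on chromosome 4 (41903610 to 41904743), which had 26.1, 7.41 and 13.8 FPKM in IUA and was listed at 2.03, 0 and 0 in control MSC (log2 change -3.37, SE 0.51, limma adjusted p = 0.0156). Its transcript is identical to that of the lymphoid chemokine gene Ccl21a at 864 of 870 aligned bases (99.3%), so reads of the copies can be split by the counting and the value is uncertain. Summed over the copies in the table, the IUA libraries had 74.7, 22.3 and 36.6 FPKM and those of control MSC 24.8, 10.8 and 10.5, which overlap. The gene was chosen after its values were seen.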
